A study of Mus musculus with 88 samples.

Results

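The genes described are 38 genes of the lysosome, chosen by name and with earlier results of these data known. They are 7 cysteine cathepsins, 5 other proteases, 9 glycosidases, 8 genes of lipid handling, 3 phosphatases or sulfatases and 6 membrane proteins. Of these, 36 were among the 8252 genes that the arrays measured with a probe set of 1 gene symbol, and Manba and Gpnmb were not analysed here. The brightest probe set stood for its gene and no dim gene was removed, so all 36 were tested. Values are linear array signals on the log2 scale, given relative to the median of the same array, so 1 unit is a factor of 2 and 0 is the typical probe set of that heart.

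Whole hearts were taken from dKO mice (SR-BI-/- apoE-/-) and from HET mice (SR-BI+/- apoE-/-), so every mouse lacked apolipoprotein E and the HET mice kept 1 working copy of the gene for SR-BI, the HDL receptor of liver and other tissues. Ages were 21, 31 and 43 days. The diets were a probucol diet (probucol is a cholesterol-lowering antioxidant drug) and chow. Per the study's design text, coronary disease cannot yet be detected in chow-fed dKO mice aged 21 days, while those aged 31 days have small infarcts and a failing heart and those aged 43 days have extensive infarcts and severe failure, HET mice on chow develop none, and each mouse had its own array. There were 6, 8 and 6 arrays of probucol-fed dKO mice at 21, 31 and 43 days, 10, 10 and 12 of chow-fed dKO mice, 3, 3 and 2 of probucol-fed HET mice, and 9, 10 and 9 of chow-fed HET mice. With 2 or 3 hearts, the probucol-fed HET groups were the least precise.

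Lysosomes are acidic organelles in which hydrolases break down proteins, glycans and lipids brought in by endocytosis, phagocytosis and autophagy. Most of their soluble enzymes are tagged with mannose 6-phosphate in the Golgi and sorted by receptors, while heavily glycosylated membrane proteins such as LAMP1 line the limiting membrane. Macrophages hold large amounts of these enzymes, and cardiomyocytes rely on the organelle for turnover of mitochondria and glycogen.

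Scarb1, which encodes SR-BI, checked the labels. Its level had medians of 0.939, 1.03 and 1.03 in chow-fed dKO hearts at 21, 31 and 43 days, against 2.30, 2.04 and 2.14 in chow-fed HET hearts, and the ranges of these groups did not overlap at any of the 3 ages. In probucol-fed dKO hearts it was highest at 1.56, and the lowest probucol-fed HET heart was at 1.66. Apoe, which every mouse lacked, had group medians between -2.65 and -1.66. Median signals of the arrays ranged from 27.8 to 75.4 and moved with group, which is why arrays were centred. The arrays also fell into a larger set of 68 and a smaller set of 20. These were seen in the residual pattern of the upper 60% of genes by signal, with the lysosomal genes left out. Among chow-fed hearts, the smaller set took in 6 dKO and 2 HET arrays at 21 days, no dKO and 6 HET arrays at 31 days, and no dKO and 3 HET arrays at 43 days. The labels do not say what this set stands for, and results at 21 days are given by set.

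On chow at 43 days, 26 of the 36 lysosomal genes were higher in dKO than in HET hearts and 1, Smpd1, was lower (limma, adjusted p under 0.05). Among all genes tested, 15.3% were higher and 26.0% were lower. The median difference over the 36 genes was 1.07 on the log2 scale, against -0.16 over all 8252 genes, and the genes ran from -0.74 for Smpd1 to 4.06 for Ctss. In 17 of the 36, every dKO heart lay above every HET heart, which held for 3.88% of all genes. All 7 cysteine cathepsins were higher, as were 4 of 5 other proteases, 6 of 8 glycosidases, 5 of 8 genes of lipid handling, 1 of 3 phosphatases and sulfatases, and 3 of 5 membrane proteins. The comparison concerns whole-heart RNA, in which fewer cells of a type and less RNA per cell cannot be told apart.

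**Figure D1:**
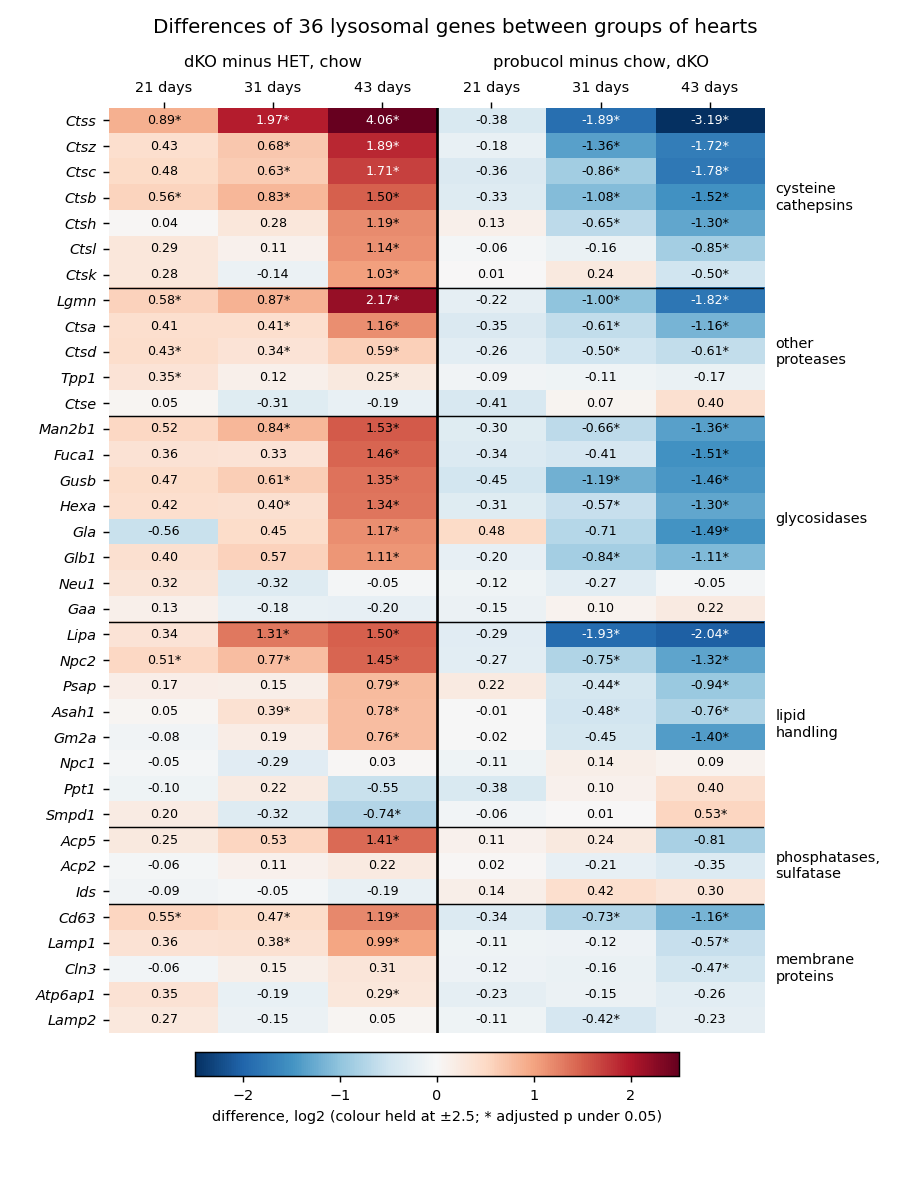
Differences of the 36 lysosomal genes on the log2 scale, as dKO minus HET on chow (left 3 columns) and probucol minus chow in dKO hearts (right 3 columns) at 21, 31 and 43 days. Rows are grouped by role, red is higher and blue lower, and an asterisk marks an adjusted p under 0.05. On chow 7, 15 and 26 genes were higher at the 3 ages, and on probucol 0, 18 and 24 were lower.

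Many lysosomal genes carry near their start an element with the core CACGTG, the site of the transcription factor TFEB and its relatives. This core, which is its own reverse complement, was searched in RefSeq promoter windows (build GRCm38.p6) from 250 bases before to 50 after each start. Of the 36 genes, 31 had such a window, and Ctsb, Npc1, Ctsh, Ctse and Asah1 were not matched. The core was found in 9 of the 31 (29.0%), against 8.09% of 27025 genes: Cln3, Ctsa, Ctsd, Ctsl, Gaa, Gla, Glb1, Lamp1 and Lgmn. Its longer palindrome TCACGTGA, which contains the core, was found in 4 of the 31, namely Cln3, Ctsa, Ctsd and Gla, against 1.12% of all genes. On chow at 43 days, 7 of the 9 genes with the core were higher in dKO hearts, as were 16 of the 22 without it. Windows of 46 bases around a core before the start are printed for 5 genes that were higher at 43 days and for Cln3 and Gaa, which were not called, with the core in capitals.
Lgmn, chr12:102439116-102439161, minus strand: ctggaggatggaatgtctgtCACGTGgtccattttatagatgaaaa
Ctsd, chr7:142387900-142387945, minus strand: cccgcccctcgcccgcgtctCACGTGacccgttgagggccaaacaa
Lamp1, chr8:13159113-13159158, plus strand: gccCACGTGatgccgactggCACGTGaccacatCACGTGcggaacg
Glb1, chr9:114401010-114401055, plus strand: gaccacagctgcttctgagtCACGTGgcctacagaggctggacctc
Gla, chrX:134601174-134601219, minus strand: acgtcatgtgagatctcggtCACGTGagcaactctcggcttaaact
Cln3, chr7:126583332-126583377, minus strand: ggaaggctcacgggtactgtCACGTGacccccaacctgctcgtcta
Gaa, chr11:119267803-119267848, plus strand: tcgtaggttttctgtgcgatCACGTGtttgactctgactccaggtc
The Lgmn window belongs to one of its annotated starts. Its core begins at position -49 from that start, the one of Ctsd at -98, the one of Glb1 at -48 and the one of Gaa at -140, while the Lamp1 stretch holds several cores. These are matches of letters, with no measurement of binding.

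Ctss had the largest difference of the 36 genes. It encodes cathepsin S, a cysteine protease of antigen-presenting cells that also cuts elastin and trims the invariant chain of MHC class II. At 21 days its level was 2.12, 2.78 and 3.87 in dKO hearts on chow (lowest, median and highest), against 1.39, 2.02 and 2.46 in HET hearts on chow. At 31 days it was 3.49, 4.15 and 5.01 in dKO hearts, against 1.66, 2.37 and 2.80 in HET hearts. At 43 days it was 5.22, 5.65 and 6.13 in dKO hearts, against 1.04, 1.42 and 2.27 in HET hearts. The groups overlapped at 21 days and were fully apart at 31 and 43 days. The differences were 0.89 ± 0.20 (SE), 1.97 ± 0.19 and 4.06 ± 0.19 at 21, 31 and 43 days, the last a 16.6-fold difference with an adjusted p of 4.01e-32.

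Ctsz, Ctsc and Ctsb followed among the cysteine cathepsins. Ctsz, the carboxypeptidase cathepsin Z, was 2.19, 2.47 and 3.11 in dKO hearts on chow at 43 days, against -0.19, 0.74 and 1.40 in HET hearts, a difference of 1.89 ± 0.17 (adjusted p = 5.39e-16). Ctsc encodes dipeptidyl peptidase 1, which activates the serine proteases of granules in immune cells. It was 1.43, 2.54 and 3.19 in dKO hearts, against 0.29, 0.72 and 1.14 in HET hearts, a difference of 1.71 ± 0.19 (adjusted p = 1.53e-12). Ctsb, a widely expressed endopeptidase, was 6.05, 6.22 and 6.59 in dKO hearts and 4.21, 4.92 and 5.07 in HET hearts, a difference of 1.5 ± 0.12 (adjusted p = 2.86e-19). None of these 3 genes had a dKO heart within the HET range at 43 days. Ctsh, an aminopeptidase, Ctsl, a widely expressed endopeptidase, and Ctsk, the collagenase of osteoclasts, differed by 1.19 ± 0.15, 1.14 ± 0.12 and 1.03 ± 0.17, all called, with the ranges apart for Ctsl alone.

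Among the other proteases Lgmn led. It encodes legumain, which cuts after asparagine and processes several cathepsins into their mature chains, and its promoter stretch is printed above. Lgmn was 3.24, 4.0 and 4.69 in dKO hearts on chow at 43 days, against 1.32, 1.70 and 2.03 in HET hearts, with no overlap and a difference of 2.17 ± 0.13 (adjusted p = 5.09e-25). Ctsa, a carboxypeptidase that also protects beta-galactosidase and neuraminidase, was higher by 1.16 ± 0.13. Ctsd, the main aspartic protease, was 5.77, 6.07 and 6.48 in dKO hearts, against 4.88, 5.62 and 5.94 in HET hearts, which overlapped, a difference of 0.59 ± 0.12 (adjusted p = 2.10e-05). Tpp1, a tripeptidyl peptidase whose loss causes a neuronal ceroid lipofuscinosis, was 3.01, 3.30 and 3.72 in dKO hearts, against 2.81, 3.14 and 3.22 in HET hearts, a difference of 0.25 ± 0.09 (adjusted p = 0.0149). Ctse, an endosomal aspartic protease, differed by -0.19 ± 0.18 and was not called. Its 3 probe sets disagreed, since the dimmest, at the floor in 12 arrays, differed by 2.40 ± 0.40.

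Glycosidases, which take sugars off glycoproteins and glycolipids, were higher in 6 of 8 cases. Man2b1, the lysosomal alpha-mannosidase, was 2.57, 3.10 and 3.71 in dKO hearts on chow at 43 days, against 0.20, 1.53 and 2.14 in HET hearts, a difference of 1.53 ± 0.19 (adjusted p = 8.70e-11). A second and dimmer Man2b1 probe set went the other way, at -0.39 ± 0.13 (adjusted p over all 12488 probe sets = 0.0144), so the direction of Man2b1 rests on which probe set is read. Fuca1, the alpha-fucosidase, was 0.55, 1.04 and 1.47 in dKO hearts, against -1.30, -0.35 and 0.31 in HET hearts, a difference of 1.46 ± 0.19 (adjusted p = 4.30e-10). Both had every dKO heart above every HET heart. Gusb, the beta-glucuronidase, and Hexa, the alpha chain of beta-hexosaminidase, were higher by 1.35 ± 0.14 and 1.34 ± 0.14, without overlap. Gla, the alpha-galactosidase deficient in Fabry disease, was higher by 1.17 ± 0.30, with 23 of its 88 values at the floor, and Glb1, the beta-galactosidase, by 1.11 ± 0.24. Gaa, the acid alpha-glucosidase that degrades lysosomal glycogen, and Neu1, a neuraminidase, were not called, at -0.20 ± 0.10 and -0.05 ± 0.25.

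The genes of lipid handling split. Lipa, the acid lipase that frees cholesterol from the esters of ingested lipoproteins, was 1.66, 2.01 and 2.58 in dKO hearts on chow at 43 days, against -0.71, 0.79 and 1.18 in HET hearts, a difference of 1.5 ± 0.26 (adjusted p = 1.56e-06). Npc2, the soluble protein that passes the freed cholesterol on to NPC1 in the membrane, was 3.35, 3.74 and 4.17 in dKO hearts, against 1.64, 2.44 and 2.66 in HET hearts, a difference of 1.45 ± 0.11 (adjusted p = 2.04e-20). Neither overlapped between the genotypes. Its membrane partner Npc1 differed by 0.03 ± 0.11 and was not called. Psap, the precursor of the saposins, Asah1, the acid ceramidase, and Gm2a, the GM2 activator, were higher by 0.79 ± 0.13, 0.78 ± 0.14 and 0.76 ± 0.24. A second Psap probe set, also never at the floor, differed by 0.085 ± 0.10 (adjusted p over all probe sets = 0.528), so the call of Psap rests on its brightest probe set. Ppt1, a palmitoyl-protein thioesterase with 14 of 88 values at the floor, differed by -0.55 ± 0.29 without being called.

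Smpd1, the acid sphingomyelinase, was the gene that was lower. At 43 days its level was 3.44, 4.01 and 4.29 in dKO hearts on chow, against 4.12, 4.84 and 5.04 in HET hearts. The ranges overlapped, and the difference was -0.74 ± 0.12 (adjusted p = 6.63e-07). On signals as deposited, without centring, it was -0.39 ± 0.11 and still called. At 21 and 31 days it was 0.20 ± 0.13 and -0.32 ± 0.13, neither called.

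Of the phosphatases and the sulfatase, Acp5 was called. It encodes the tartrate-resistant acid phosphatase of osteoclasts and macrophages and was 0.72, 1.28 and 1.80 in dKO hearts on chow at 43 days, against -2.81, 0.27 and 0.69 in HET hearts, a difference of 1.41 ± 0.31 (adjusted p = 0.00011). The highest HET heart was close to the lowest dKO heart, and 1 HET heart lay far below the others. Acp2, the lysosomal acid phosphatase, and Ids, the iduronate sulfatase, differed by 0.22 ± 0.18 and -0.19 ± 0.18 and were not called.

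Among membrane proteins, Cd63, a tetraspanin of late endosomes and lysosomes, was 4.30, 4.53 and 4.91 in dKO hearts on chow at 43 days, against 2.97, 3.42 and 3.69 in HET hearts, a difference of 1.19 ± 0.10 (adjusted p = 3.21e-17). Lamp1, an abundant glycoprotein of the limiting membrane, was higher by 0.99 ± 0.12, both without overlap. Atp6ap1, an accessory subunit of the proton pump, was higher by 0.29 ± 0.12 (adjusted p = 0.0387). Cln3, the membrane protein of juvenile Batten disease, and Lamp2, which is needed for fusion of autophagosomes in heart muscle, were not called, at 0.31 ± 0.16 and 0.05 ± 0.13. The second Lamp2 probe set, also never at the floor, differed by 0.99 ± 0.16 (adjusted p over all probe sets = 4.63e-07), so the probe sets of this gene did not agree.

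**Figure D2:**
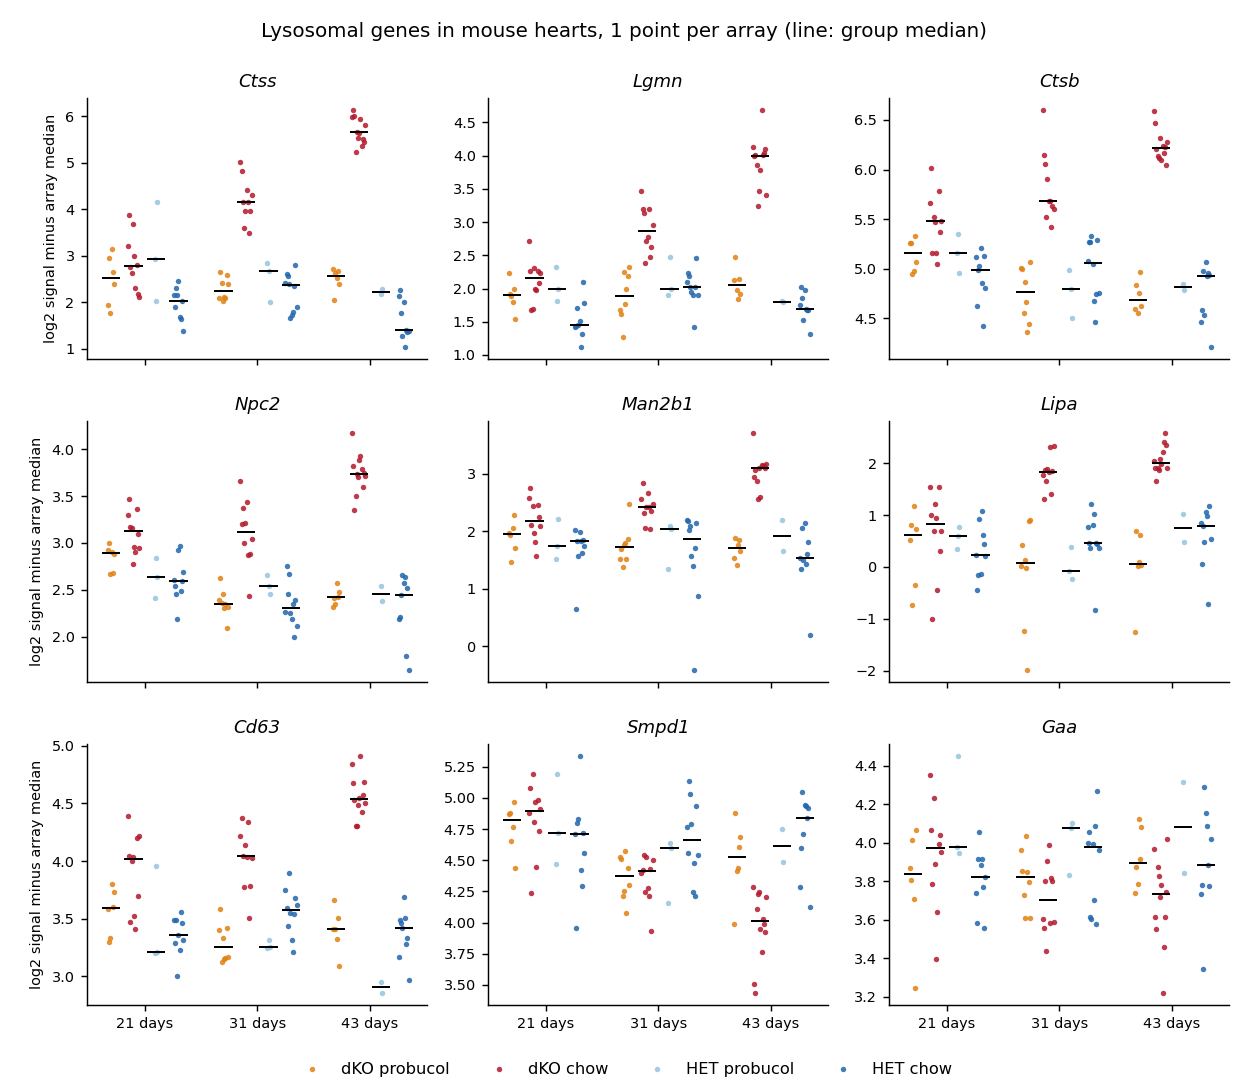
Level of 9 lysosomal genes in each heart (log2 signal minus the array median, 1 point per array, line at the group median) by age and by group. For Ctss, all chow-fed dKO hearts at 43 days lie between 5.22 and 6.13, above every heart of the other groups at that age, while Smpd1 lies lower there and Gaa shows no called difference. The vertical axes differ between panels and do not start at 0.

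At 31 days on chow, 15 of the 36 genes were higher in dKO than in HET hearts and 0 were lower (limma), against 6.69% and 16.3% of all genes. By unadjusted p under 0.05, 16 of the 36 were higher and 2, Npc1 at -0.29 and Smpd1 at -0.32, were lower, where 34.6% of all genes passed. The median over the 36 was 0.34, against -0.13 over all genes. All 15 were also higher at 43 days, in other mice. After Ctss the largest differences were 1.31 ± 0.27 for Lipa, 0.87 ± 0.14 for Lgmn, 0.84 ± 0.19 for Man2b1, 0.83 ± 0.12 for Ctsb and 0.77 ± 0.11 for Npc2. The second Man2b1 probe set went the other way at this age too, at -0.66 ± 0.14 (adjusted p over all probe sets = 0.000168). Glb1 was not called at 0.57 ± 0.25, while its second probe set differed by 1.37 ± 0.34 (adjusted p over all probe sets = 0.00176). Lipa was 1.31, 1.84 and 2.33 in dKO hearts, against -0.82, 0.47 and 1.22 in HET hearts. Ctsb was 5.42, 5.68 and 6.60 in dKO hearts, against 4.47, 5.06 and 5.33 in HET hearts. With Ctss, these were the 3 genes whose groups did not overlap, which held for 0.824% of all genes. Ctsl, Ctsh, Ctsk, Fuca1 and Gla, all called at 43 days, were not called at 31 days, at 0.11 ± 0.12, 0.28 ± 0.15, -0.14 ± 0.17, 0.33 ± 0.19 and 0.45 ± 0.30. The smaller array set held HET but no dKO arrays on chow at this age. With array set as a block, 15 of the 36 were called, 14 of them called before, where 977 of 8252 genes were called. The calls of Ctsc, Ctsa, Hexa, Man2b1, Asah1 and Lamp1 were each lost under some alternative processing.

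At 21 days on chow, 7 of the 36 genes were higher in dKO hearts and 0 lower (limma), against 2.38% and 0.800% of all genes. By unadjusted p under 0.05, 16 were higher and 0 lower, where 17.3% of all genes passed. They were Ctss, Lgmn, Ctsb, Cd63, Npc2, Ctsd and Tpp1. Ctsb was 5.04, 5.48 and 6.01 in dKO hearts, against 4.42, 4.98 and 5.21 in HET hearts (0.56 ± 0.12). Lgmn was 1.67, 2.16 and 2.71 in dKO hearts, against 1.12, 1.45 and 2.11 in HET hearts (0.58 ± 0.14). Cd63 was 3.41, 4.02 and 4.39 in dKO hearts, against 3.0, 3.36 and 3.56 in HET hearts (0.55 ± 0.11). All 3 overlapped between the genotypes, and so did the other 4 genes. Npc2 was 2.77, 3.13 and 3.47 in dKO hearts, against 2.18, 2.60 and 2.97 in HET hearts (0.51 ± 0.11). Ctsd was 5.39, 5.92 and 6.29 in dKO hearts, against 4.85, 5.58 and 5.78 in HET hearts (0.43 ± 0.12). Tpp1 was 3.10, 3.47 and 3.84 in dKO hearts, against 2.92, 3.15 and 3.37 in HET hearts (0.35 ± 0.09). All 7 were higher again at 43 days, and all but Tpp1 at 31 days.

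The count at 21 days depended on scaling and on how array set was handled, where fits within a set also have fewer arrays. On signals as deposited, which left the median of all genes at -0.16 where centring left it at 0.06, 1 of the 7 was called, Ctsb at 0.34 ± 0.09, against 0.448% higher among all genes. Within the larger array set, with 4 dKO and 7 HET arrays, 0 of the 36 genes and 0.242% of all genes were called. There Ctss differed by 0.61 ± 0.24, Lgmn by 0.44 ± 0.19, Cd63 by 0.31 ± 0.13 and Ctsd by 0.09 ± 0.16. Within the smaller set, with 6 dKO and 2 HET arrays, 3 genes were called (2.58% of all genes), among them Ctsd at 0.87 ± 0.20 and Npc2 at 0.70 ± 0.18. With array set as a block, 5 were called, without Ctsd and Tpp1, against 1.54% of all genes. Each of the 7 was positive under all these settings. At 31 and 43 days centring moved the median of all genes to -0.13 and -0.16, where signals as deposited left it at 0.19 both times, and counts as deposited were 22 higher and 0 lower at 31 days (15.6% and 2.65% of all genes) and 30 higher and 1 lower at 43 days (28.2% and 8.52%).

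The dKO minus HET difference grew with age for most of the genes that were called. From 21 to 43 days it increased in 21 of the 36 and decreased in 1 (limma interaction contrast), against 8.34% and 18.1% of all genes. The increase was 3.17 ± 0.27 for Ctss, 1.73 ± 0.43 for Gla and 1.59 ± 0.19 for Lgmn, and the decrease was -0.94 ± 0.18 for Smpd1. For Ctsd, Tpp1, Atp6ap1, Glb1 and Gm2a, which were called at 43 days, no change from 21 to 43 days was called. The second Glb1 probe set, at the floor in 7 arrays, did change, by 2.51 ± 0.48 from 21 to 43 days (adjusted p over all probe sets = 2.64e-05). From 21 to 31 days it changed by 2.13 ± 0.48 (adjusted p over all probe sets = 0.00219), so the result for Glb1 rests on which probe set is read. From 21 to 31 days the difference increased in 1 gene, Ctss by 1.08 ± 0.28, and decreased in 2, Smpd1 and Atp6ap1, against 4.16% and 13.2% of all genes. On signals as deposited 16 genes increased over that step and 0 decreased (13.2% and 0.339% of all genes), so apart from Ctss the changes from 21 to 31 days depended on the scaling.

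**Figure D3:**
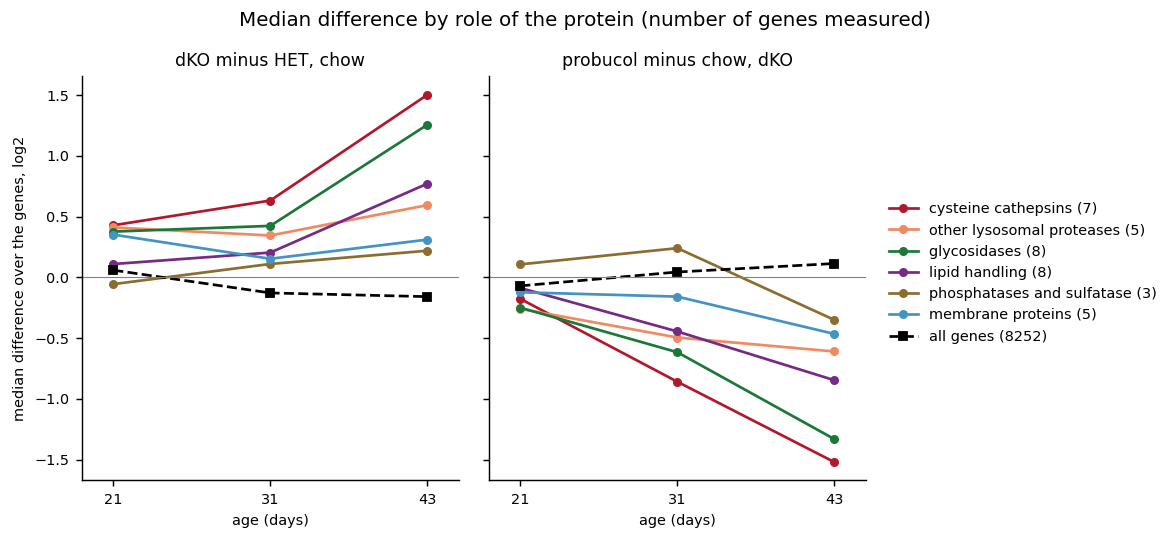
Median difference on the log2 scale over the genes of each role, as dKO minus HET on chow (left) and probucol minus chow in dKO hearts (right), against age in days; black squares are all 8252 genes. The cysteine cathepsins reach the highest median at 43 days on chow, 1.5, and the lowest on probucol, -1.52.

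In HET hearts on chow few of the genes changed with age. From 21 to 31 days Gusb, Ctsz, Ctsc, Lamp2 and Lgmn were higher, by 0.48 to 0.67, and Lamp1 was lower by 0.40 (difference -0.40 ± 0.12), against 4.28% higher and 1.58% lower among all genes. With array set as a block, 2 genes were called (3.25% of all genes), so the count depended on how the array set was handled. Within the larger or the smaller array set 0 were called (0.557% and 1.08%). Those fits also have fewer arrays, so lost precision and the set itself cannot be told apart there. From 21 to 43 days 0 of the 36 were called by limma, and 1.47% of all genes were called. By unadjusted p under 0.05, 4 of the 36 and 13.9% of all genes passed. As deposited, without centring, 8 were higher over that step, against 12.0% of all genes.

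Probucol was set against chow in dKO hearts. At 43 days 24 of the 36 genes were lower on probucol and 1, Smpd1, was higher, against 13.1% and 16.8% of all genes. The median was -0.89, against 0.11 over all genes, and in 20 genes every probucol-fed heart was below every chow-fed heart, which held for 5.87% of all genes. At 31 days 18 were lower and 0 higher, against 8.35% and 5.74% of all genes, with 6 fully apart (1.49% of all genes). At 21 days limma called 0 of the 36 and 0.812% of all genes, while 5 of the 36, all lower, and 11.5% of all genes passed an unadjusted p under 0.05. This comparison uses the same chow-fed dKO arrays as the one between genotypes, so both comparisons share those samples.

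By role, the 7 cysteine cathepsins were all lower on probucol at 43 days. Ctss was 2.04, 2.58 and 2.71 in probucol-fed dKO hearts, against 5.22, 5.65 and 6.13 in chow-fed dKO hearts, a difference of -3.19 ± 0.22 (adjusted p = 2.44e-22). At 31 days Ctss was 2.02, 2.25 and 2.65 on probucol, against 3.49, 4.15 and 5.01 on chow (-1.89 ± 0.20). Ctsz was 0.61, 0.76 and 1.22 on probucol, against 2.19, 2.47 and 3.11 on chow at 43 days. Its difference was -1.72 ± 0.20, that of Ctsc -1.78 ± 0.21 and that of Ctsb -1.52 ± 0.13, each without overlap. Lgmn was 1.84, 2.05 and 2.47 on probucol, against 3.24, 4.0 and 4.69 on chow at 43 days, a difference of -1.82 ± 0.15 (adjusted p = 2.00e-17).

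Lipa and Npc2, which handle ingested cholesterol, were lower on probucol as well. Lipa was -1.25, 0.07 and 0.69 in probucol-fed dKO hearts, against 1.66, 2.01 and 2.58 in chow-fed dKO hearts at 43 days, a difference of -2.04 ± 0.30 (adjusted p = 2.18e-08). At 31 days it was -1.98, 0.08 and 0.91 on probucol, against 1.31, 1.84 and 2.33 on chow (-1.93 ± 0.28). Lipa had the largest fall of the 36 genes at 31 days and the largest after Ctss at 43 days. Npc2 was 2.32, 2.42 and 2.58 on probucol, against 3.35, 3.74 and 4.17 on chow at 43 days (-1.32 ± 0.12). Gm2a was lower by a difference of -1.40 ± 0.27 at 43 days, and Npc1 was not called at any age.

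Among the glycosidases Fuca1, Gla, Gusb, Man2b1, Hexa and Glb1 were lower on probucol at 43 days, with differences from -1.51 ± 0.21 for Fuca1 to -1.11 ± 0.28 for Glb1. Man2b1 was 1.41, 1.71 and 1.89 on probucol, against 2.57, 3.10 and 3.71 on chow, and its second probe set again went the other way, at 0.59 ± 0.15. Cd63 was 3.09, 3.41 and 3.67 on probucol, against 4.30, 4.53 and 4.91 on chow (-1.16 ± 0.12), with no overlap. Lamp1 was lower by a difference of -0.57 ± 0.13 and Cln3 by one of -0.47 ± 0.18. Lamp2 was not called at -0.23 ± 0.15, while its second probe set differed by -0.93 ± 0.19 (adjusted p over all probe sets = 4.01e-05). Smpd1 was 3.99, 4.52 and 4.88 on probucol, against 3.44, 4.01 and 4.29 on chow, a difference of 0.53 ± 0.14 (adjusted p = 0.00193), and as deposited no gene of the 36 was higher (5.68% of all genes). Acp5 at -0.81 ± 0.35 and Tpp1 at -0.17 ± 0.10 were not called.

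With both genotypes on probucol, limma called 0 of the 36 genes between dKO and HET hearts at 21, 31 and 43 days, where 2, 1 and 2 passed an unadjusted p under 0.05 (4.37%, 3.56% and 5.14% of all genes). Of all genes 0.0242%, 0% and 0.0485% were called, so these contrasts with 2 or 3 HET hearts called almost nothing anywhere. At 43 days Ctss was 2.04, 2.58 and 2.71 in the 6 dKO hearts, against 2.18 and 2.28 in the 2 HET hearts. Its difference of 0.26 ± 0.35 is a log2 value whose error leaves room for differences of either sign. Cd63 was 3.09, 3.41 and 3.67 in dKO hearts, against 2.86 and 2.96 in HET hearts, all above but with an adjusted p of 0.739.

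In HET hearts limma called 0, 1 and 0 of the 36 genes between probucol and chow at 21, 31 and 43 days, against 0.267%, 3.17% and 0.133% of all genes. By unadjusted p under 0.05, 4, 8 and 3 passed, against 5.78%, 18.3% and 8.12% of all genes. The gene called at 31 days was Lamp2, lower on probucol at -0.72 ± 0.20 (adjusted p = 0.0264). That call was lost on signals as deposited and with quantile normalization, where Lamp1 was called in its place as higher on probucol (0.65 ± 0.13 and 0.77 ± 0.13). It was also lost with probe sets averaged, with array set as a block, with only the groups compared, in the larger array set, and on leaving out HET probucol replicate 2 or 3. At 21 days Ctss was 2.02, 2.94 and 4.16 in the 3 probucol-fed HET hearts, against 1.39, 2.02 and 2.46 in chow-fed HET hearts (lowest, median and highest). Its difference was 1.07 ± 0.29 with an adjusted p of 0.0894, and 1 heart lay far above the others.

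The probucol effect was then compared between the genotypes. At 43 days it was lower in dKO hearts than in HET hearts for 18 genes and higher for 0 (limma), against 5.49% and 7.83% of all genes, by -3.79 ± 0.40 for Ctss, -2.21 ± 0.55 for Lipa and -1.90 ± 0.28 for Lgmn. Without HET probucol replicate 1 at 43 days, 10 genes were called (9.21% of all genes). That left 1 heart in the group, which is then assumed to vary like the hearts of the other groups. At 31 days it was lower for 5 genes and higher for 0, namely Ctss, Lgmn, Npc2, Gusb and Ctsb, against 1.44% and 3.28% of all genes, for 3 without HET probucol replicate 1 (2.63% of all genes called), and for 14 as deposited (5.70% lower among all genes). At 21 days Ctss was called alone, at -1.46 ± 0.36 (adjusted p = 0.0401, against 0.339% lower among all genes), and this call was lost on signals as deposited, with quantile normalization and with the array set as a block.

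Other genes of the lysosome were counted in the same comparison on chow at 43 days. Of 11 other hydrolases 3 were higher and 2 lower, of 14 subunits of the proton pump (V-ATPase) 8 were higher and 3 lower, of 8 other membrane proteins 3 were higher and 3 lower, and of 11 sorting and biogenesis genes 1 was higher and 3 were lower, beside 15.3% higher and 26.0% lower among all genes. Their medians were 0.19, 0.33, -0.04 and -0.22 on the log2 scale, beside 1.07 for the 36 and -0.16 for all genes. Of 13 autophagy genes 5 were higher and 4 lower, with a median of -0.03. The differences between the lists were not tested, and the lists were chosen with earlier results of these data known.

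Named genes of those lists were taken by smallest p. Scpep1, a serine carboxypeptidase, and Galc, the galactosylceramidase, were higher by 0.95 ± 0.18 and 1.68 ± 0.37, while Ctsf, a cysteine cathepsin outside the 36, was lower at -0.76 ± 0.15. Cd68, Laptm5 and Slc11a1, lysosomal membrane proteins known from macrophages, were higher by 2.27 ± 0.15, 1.84 ± 0.13 and 2.27 ± 0.27, and the peptide transporter Abcb9 was lower at -0.77 ± 0.14. Those 3 were also higher at 21 days, by 1.33 ± 0.15, 0.71 ± 0.14 and 1.21 ± 0.28. Among pump subunits Tcirg1, known from osteoclasts, was higher by 1.77 ± 0.27, Atp6ap2 by 1.30 ± 0.20, Atp6v1b2 by 1.03 ± 0.12 and Atp6v1a by 0.89 ± 0.11. Lrp1, an endocytic receptor, was the sorting gene that was higher, by 0.90 ± 0.11. Cstb, a cytosolic inhibitor of cysteine cathepsins, was higher by 1.39 ± 0.10 and Cst3, the secreted inhibitor cystatin C, lower at -0.39 ± 0.11. Map1lc3a and Ulk1, of the autophagy machinery, were lower at -0.97 ± 0.12 and -0.75 ± 0.11.

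**Figure D4:**
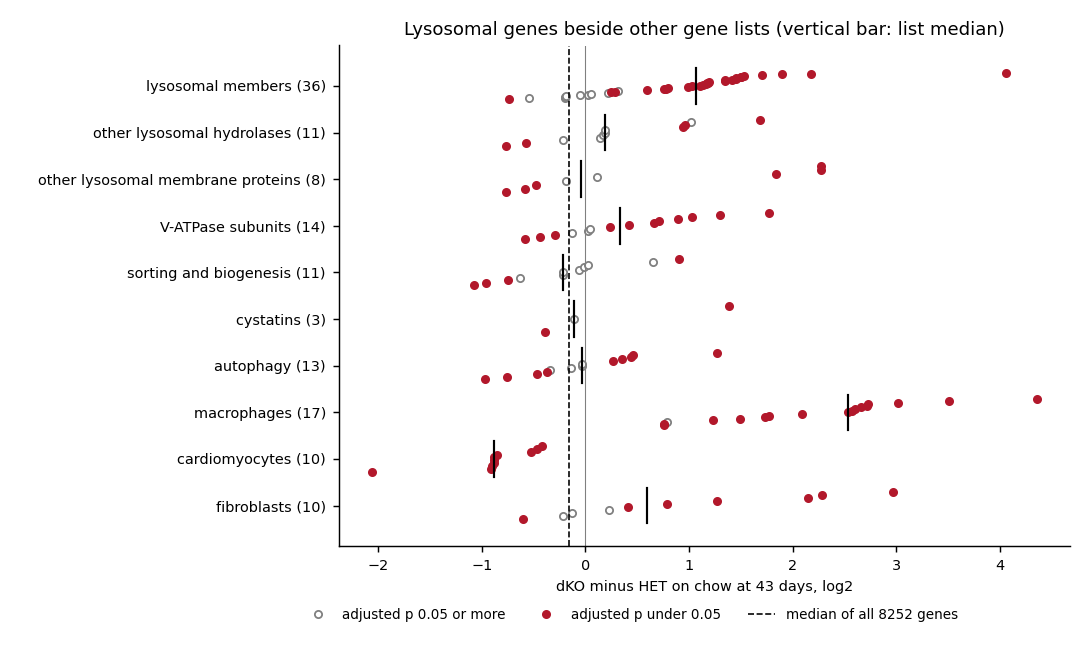
Difference of dKO minus HET on chow at 43 days (log2) for each gene of 10 lists; filled points have an adjusted p under 0.05, vertical bars are list medians and the dashed line is the median of all 8252 genes. The 36 lysosomal genes have a median of 1.07, between the macrophage markers at 2.54 and the other lysosomal lists.

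Markers of cell types moved in the same comparisons. At 43 days 16 of 17 macrophage markers were higher in dKO hearts on chow and 0 lower, with Mpeg1 at 3.51 ± 0.15 and Cd53 at 4.36 ± 0.30, and none of them was at the floor throughout a group. Their summed signal, in multiples of the array median, ranged from 122 to 222 in dKO hearts, against 31.0 to 44.3 in HET hearts. At 31 days 12 of 17 were higher, with sums of 61.0 to 141 in dKO hearts, against 30.5 to 55.1 in HET hearts. At 21 days 3 of 17 were higher, with sums of 34.8 to 62.5 in dKO hearts, against 29.6 to 34.9 in HET hearts. Other cell types moved at 21 days as well. Of 4 erythroid genes 3 were higher, with sums of 238 to 385 in dKO hearts, against 121 to 275 in HET hearts, and of 9 endothelial genes 2 were higher, with sums of 76.4 to 105 in dKO hearts, against 52.2 to 79.9 in HET hearts. Among all genes 2.38%, 6.69% and 15.3% were higher at 21, 31 and 43 days, and 26.0% were lower at 43 days. The marker counts at 21 days were not split by array set, which was uneven between the genotypes at that age. In probucol-fed dKO hearts the macrophage sums were 37.0 to 43.5 at 43 days and 39.4 to 48.5 at 31 days, below every chow-fed dKO heart of the same age. All 10 cardiomyocyte markers were lower in dKO hearts on chow at 43 days, with sums of 541 to 1057, against 744 to 1607 in HET hearts, and Ckm at -2.06 ± 0.15. Of 10 fibroblast markers 6 were higher and 1 lower at that age, with sums of 289 to 368 in dKO hearts, against 133 to 230 in HET hearts, and Postn at 2.97 ± 0.17. Of the erythroid genes 3 were higher at 43 days as well, with sums of 158 to 351 in dKO hearts, against 48.8 to 129 in HET hearts. The log2 ratio of 3' to 5' actin control signals, a sign of RNA quality, averaged 0.17 in dKO and 0.11 in HET hearts at 43 days. It averaged 0.39 in dKO and 0.24 in HET hearts at 31 days, and -0.16 in dKO and 0.07 in HET hearts at 21 days, all on chow. In probucol-fed dKO hearts it averaged 0.09, 0.04 and -0.12 at 21, 31 and 43 days. The part of these markers and of RNA quality in the differences of the 36 genes was not tested. With the actin ratio as a covariate, limma called 6, 13 and 27 of the 36 genes between dKO and HET on chow at 21, 31 and 43 days. Of all genes 2.38%, 21.9% and 41.6% were called.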

How the data were processed

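RNA from 88 whole mouse hearts had been hybridised to Affymetrix arrays of 12488 probe sets. The authors deposited linear signal intensities, and MAS5 is named in the submitters' processing notes; the sources used here do not give the scaling step. The labels' genotype, diet and age set the groups. For dKO chow replicate 2 at 21 days, title and age field were followed where its description names another age. Intensities were raised to a floor of 4.22 (10th percentile), converted to log2 and centred on each array's median. The brightest probe set with 1 symbol in the platform annotation stood for each of 8252 genes. The 12 group means were estimated with limma 3.58.1 (intensity trend) in R 4.3.3, and Benjamini-Hochberg adjustment ran over all genes within each of 19 contrasts, at 0.05. The number of arrays limits precision.

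Members and lists were chosen with earlier results of these data known. Values per group are given for the 10 members with the largest called difference on chow at 43 days, those called against most, and those called at 21 days; of other lists, at most 4 genes with the smallest p at 43 days. Alternatives were signals as deposited, quantile normalization, a floor at the 30th percentile, the upper 60% of genes by signal, probe sets averaged by gene, a replicate block, the array set as a block, the actin ratio as a covariate, no trend, only the groups compared, and arrays left out. Restricting to either array set, or leaving out 6 arrays of extreme residual pattern, was chosen after seeing the data. Sequences are RefSeq's (GRCm38.p6).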

Additional observations from a re-analysis of the deposited data

Results flagged for a closer look

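Of 112 groups of named genes tested for an array far from the others of its group (the gap to the nearest divided by the range, at the 95% level), 12 had one, and chance would mark about 5% of them. The same arrays recur across the genes, so these tests are not independent. Chow-fed dKO hearts at 43 days, with 12 arrays, and the probucol-fed HET groups, with 2 or 3, were not tested this way. In chow-fed HET hearts, Man2b1 lay low at 0.65 in replicate 2 at 21 days, at -0.41 in replicate 7 at 31 days and at 0.2 in replicate 9 at 43 days, relative to the array median on the log2 scale. These 3 arrays are among the 6 arrays of extreme residual pattern. Lipa was also low, at -0.82, in HET chow replicate 7 at 31 days and, at -1.25, in dKO probucol replicate 1 at 43 days. Man2b1 was high at 2.48 in dKO probucol replicate 8 at 31 days. Fuca1 was low at -1.07 in dKO chow replicate 3 at 21 days, and Acp5 at -2.31 and -2.81 in replicate 4 of the HET chow groups at 21 and 43 days. On chow at 31 days Smpd1 was low at 3.93 in dKO replicate 9, while Ctsd at 6.58 and Tpp1 at 3.64 were high in dKO replicate 1.

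Differences between groups were those of the interaction contrasts, 49 values in all on the log2 scale (limma, adjusted p under 0.05). The change of the dKO minus HET difference on chow from 21 to 31 days was 1.08 for Ctss, -0.54 for Atp6ap1 and -0.52 for Smpd1. From 21 to 43 days that change was 3.17 for Ctss, 1.73 for Gla, 1.59 for Lgmn, 1.47 for Ctsz, 1.23 for Ctsc, 1.16 for Acp5, 1.15 for Lipa, 1.15 for Ctsh, 1.1 for Fuca1, 1.01 for Man2b1, 0.94 for Ctsb, 0.94 for Npc2, -0.94 for Smpd1, 0.92 for Hexa, 0.88 for Gusb, 0.85 for Ctsl, 0.75 for Ctsa, 0.75 for Ctsk, 0.73 for Asah1, 0.65 for Cd63, 0.63 for Lamp1 and 0.63 for Psap.

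The probucol effect in dKO hearts minus that in HET hearts was -1.46 for Ctss at 21 days. At 31 days it was -2.18 for Ctss, -1.12 for Lgmn, -0.96 for Npc2, -0.86 for Gusb and -0.85 for Ctsb. At 43 days it was -3.79 for Ctss, -2.21 for Lipa, -1.9 for Lgmn, -1.77 for Man2b1, -1.6 for Ctsb, -1.54 for Hexa, -1.48 for Npc2, -1.48 for Fuca1, -1.39 for Ctsz, -1.37 for Ctsc, -1.32 for Gusb, -1.24 for Ctsa, -1.13 for Ctsh, -1.04 for Lamp1, -0.99 for Psap, -0.94 for Asah1, -0.88 for Ctsl and -0.7 for Cd63. Man2b1 and Psap are read here from their brightest probe sets. The second probe set of Man2b1 gave 0.36 ± 0.28 for the probucol effect at 43 days and -0.01 ± 0.19 for the change from 21 to 43 days, and that of Psap gave -0.12 ± 0.21 and -0.01 ± 0.14. The contrasts of the probucol effect rest on 3, 3 and 2 probucol-fed HET hearts at the 3 ages.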

How the results depend on the processing

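The counts of called genes on chow at 31 and 43 days, of probucol in dKO hearts at 31 and 43 days and of the change from 21 to 43 days stayed within 1.5 times of those reported under every alternative run. Of 27 genes called on chow at 43 days, 25 were called in the same direction under each alternative that tested them (the others were Gm2a and Atp6ap1), as were 9 of 15 at 31 days, and on probucol 22 of 25 at 43 days and 12 of 18 at 31 days. No alternative read a second probe set alone, and both counts at 43 days include Man2b1 and Psap. At that age the second probe set of Man2b1 gave -0.39 ± 0.13 on chow and 0.59 ± 0.15 for probucol. That of Psap gave 0.085 ± 0.10 and -0.21 ± 0.11. On chow at 21 days 7 genes became 1 as deposited, 4 with quantile normalization, 0 in the larger and 3 in the smaller array set, and none of the 7 was called under every alternative. The change from 21 to 31 days, 3 genes, became 16 as deposited, 5 with quantile normalization or the higher floor, and 1 with the array set as a block, only the groups compared or the larger array set. For age in HET hearts, 6 genes at 31 days became 2 with the array set as a block or only the groups compared and 0 within either array set. Its count of 0 at 43 days became 8 as deposited, 1 with quantile normalization, the higher floor, the upper 60% of genes or the array set as a block, and 2 in the larger set. Probucol in HET hearts called 0, 1 and 0 genes. At 21 days this became 1 in the larger set, at 31 days 0 with the mean of probe sets, the array set as a block, only the groups compared or the larger set and 2 without the 6 arrays (as deposited or with quantile normalization the count stayed 1, but the gene was Lamp1, higher, and not Lamp2, lower), and at 43 days 1 without the 6 arrays. Leaving out a probucol-fed HET array gave 0 to 1 at 21 and at 31 days. The difference of the probucol effect called 1 gene at 21 days and 0 as deposited, with quantile normalization, the mean of probe sets, the replicate block, the array set as a block, no trend, only the groups compared, or without dKO replicate 2 or the 6 arrays, and 0 to 1 on leaving out an array. Its 5 genes at 31 days became 14 as deposited and 10 with quantile normalization, with 3 as the lowest on leaving out an array, and the 18 at 43 days became 10 to 19 on leaving out an array. Replicate numbers did not pair the arrays: same-numbered arrays of different groups correlated by 0.0062 on average and as low as -0.296, and 13 of 88 arrays correlated best with their own number. The replicate block moved no count by over 1.5 times except that of the difference of the probucol effect at 21 days. Of 4560 values by gene, comparison and alternative, 151 had the other sign. In 145 of these neither value was called. In the other 6 one of the values was called: with the mean of probe sets Ctse was 0.54 at 31 and 0.65 at 43 days on chow, Man2b1 0.052 for probucol at 31 days and Cln3 0.090 for probucol at 43 days; Asah1 was -0.032 at 31 days in the larger array set, and Ppt1 -0.24 at 31 days with the higher floor. Apart from the settings by their construction (fewer arrays, other probe sets), the cause was not tested. Differences of genes near the floor, Gla and Ppt1 above all, can depend on the floor and on centring. The direction of that error was not tested.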

Other observations

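Genes of other lists gave further values on chow at 43 days (dKO minus HET, log2). S100a8 and S100a9, which encode abundant proteins of neutrophils, were higher by 3.08 ± 0.31 and 3.77 ± 0.38, while Elane, the neutrophil elastase that Ctsc activates, was lower at -0.51 ± 0.17, and Ltf at -0.90 ± 0.39 was not called. Of 7 neutrophil genes 2 were higher and 1 lower. Of 10 T and B cell genes 4 were lower and 0 higher, among them Cd79a at -1.29 ± 0.22 and Cd3g at -1.08 ± 0.31. The summed signal of the 10 genes, in multiples of the array median, overlapped. It ranged from 4.31 to 8.69 in dKO hearts, against 6.54 to 14.4 in HET hearts. Among all genes 15.3% were higher and 26.0% were lower at that age. Alas2, the heme synthesis enzyme of red cell precursors, differed by 1.45 ± 0.21, 2.62 ± 0.20 and 3.59 ± 0.20 at 21, 31 and 43 days, so it was already called at the first age, while Epb42 was not, at -0.25 ± 0.35, -0.17 ± 0.34 and -0.32 ± 0.33.

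Some pairs of genes with related roles gave unlike values. Npc2 and Npc1 act in sequence on cholesterol and differed by 1.45 ± 0.11 and 0.03 ± 0.11 at 43 days. Asah1 and Smpd1 both act on sphingolipids and differed by 0.78 ± 0.14 and -0.74 ± 0.12. Hexa and Gaa are both soluble glycosidases and differed by 1.34 ± 0.14 and -0.20 ± 0.10. These pairs were chosen after their values were seen, and the differences within a pair were not tested.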
